A study of Sorghum propinquum with 2 samples.

Results

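The genes described here were expressed in the shoot of *Sorghum propinquum* and nearly silent in its rhizome: each had at least 20 RPKM (reads scaled to 1000 bases of gene length and to 1000000 reads in all) in the shoot library and less than 1 RPKM in the rhizome library. They numbered 96 of the 24371 listed genes. Of the 4293 genes that reached 20 RPKM in the shoot, 2.24% were under 1 RPKM in the rhizome, which is the same 96. The genes were chosen by both values, so their levels and ratios describe these libraries and were not tested.

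*S. propinquum* is a wild relative of grain sorghum. It spreads by rhizomes, stems that grow horizontally underground. A shoot carries stems and green leaves, where light is captured and carbon is fixed, while a rhizome grows in the dark and serves spread and storage. Cells of both organs need the same basic functions, and genes of photosynthesis are a well-known group that green organs use far more than underground ones.

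RNA was sequenced from 1 rhizome sample and 1 shoot sample, taken at active tillering, the stage when side shoots form, from a single vegetative clone of an unnamed accession in a greenhouse. No genotype, treatment or age differs between the groups by the labels. With a single library per organ, the spread between plants is unmeasured and p-values are not given. Intervals (exact, 95%) of levels, ratios and read shares cover counting error alone, and reads that are PCR copies would make them too narrow. They make no allowance for the choice of genes on the same counts. Intervals over genes treat the genes as independent draws. Gene reads totalled 16862624 in the rhizome and 17153968 in the shoot. The files pair no locus ID with a gene name or product, so genes are described by length, chromosome and level, and 2 are named by ID. For the same reason the organ labels were not checked against marker genes here. In whole-organ RNA, fewer cells of a type and less RNA per cell cannot be told apart.

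The shoot levels of the 96 genes ran from 20.1 to 825 RPKM with a median of 38.99, and their rhizome levels from 0 to 0.999 RPKM with a median of 0.357. Most were moderately expressed in the shoot: 57 genes had 20 to 50 RPKM, 21 had 50 to 100 RPKM, 11 had 100 to 200 RPKM and 7 had 200 RPKM or more. The other 4197 genes at 20 RPKM or more had nearly the same shoot median, 40.2 RPKM, but a rhizome median of 37.9 RPKM. By shoot level, the share of genes nearly silent in the rhizome was 2.18% of the genes at 20 to 50 RPKM (interval over genes 1.66% to 2.82%), 2.31% at 50 to 100 RPKM, 2.63% at 100 to 200 RPKM and 1.99% of the 352 genes at 200 RPKM or more (0.803% to 4.05%).

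**Figure D1:**
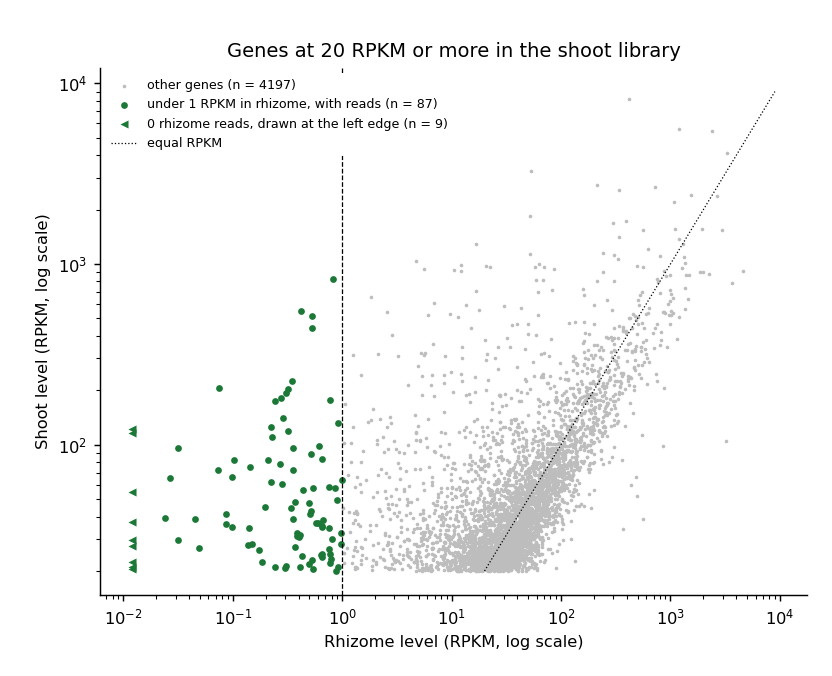
Shoot level against rhizome level, both in RPKM on log axes, for the 4293 genes that reached 20 RPKM in the shoot library, with the 96 genes under 1 RPKM in the rhizome in green and the 9 of them without rhizome reads drawn as triangles at the left edge, which is not a measured level. The green genes are the sparse left end of the cloud, and the numbers of genes fall off from the dotted line of equal level without a gap at the dashed line of 1 RPKM.

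The limit of 1 RPKM did not fall at a gap in the rhizome levels. Among the 4293 genes, 3241 also had 20 RPKM or more in the rhizome, 542 had 10 to 20 RPKM, 216 had 5 to 10 RPKM, 140 had 2 to 5 RPKM and 58 had 1 to 2 RPKM. Below the limit, 36 genes had 0.5 to 1 RPKM and 60 had less than 0.5 RPKM. The last gene inside the limit was a 12171-base gene of chromosome 9, whose 205 rhizome reads made 0.999 RPKM and whose 13282 shoot reads made 63.6 RPKM. The first gene outside it, an 815-base gene of chromosome 1, had 14 rhizome reads for 1.02 RPKM, and 44.4 RPKM in the shoot. At the shoot limit, a 1421-base gene of chromosome 5 stood just inside with 20.1 RPKM, and a 199-base gene of chromosome 10 just outside with 19.6 RPKM. A ratio would have chosen a wider group: 208 of the 4293 genes (4.85%) were 20-fold or more higher in the shoot, and 112 of those had 1 RPKM or more in the rhizome.

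The few rhizome reads behind these values set how well near-silence was measured. In the rhizome library, 9 of the 96 genes had 0 reads, 21 had 1 to 3 reads, 27 had 4 to 10, 24 had 11 to 20, 13 had 21 to 60 and 2 had more. Thus 30 genes stood at or under 3 reads, the number that a count of 0 allows. Because 1 RPKM is more reads in a longer gene, the rule admitted fewer than 4.72 reads for the shortest gene, of 280 bases, and fewer than 205.2 for the longest, of 12171 bases. The upper limit of the counting interval was itself below 1 RPKM for 65 genes, and for the other 31 it reached 1 RPKM or more, up to 1.79 RPKM. The shoot side was better counted, with 167 to 52982 reads per gene and a median of 1153, and the lower limit was under 20 RPKM for 8 genes.

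**Figure D2:**
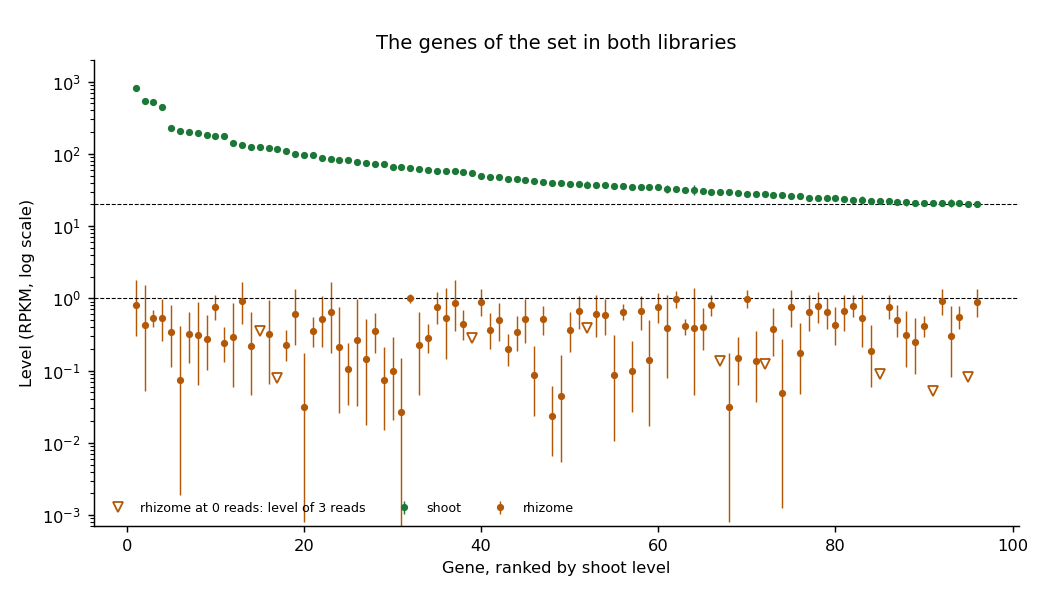
Levels of the 96 genes in RPKM on a log axis, ranked by shoot level, with the shoot in green and the rhizome in brown, exact 95% counting intervals as lines (some extend below the axis) and the 9 genes at 0 rhizome reads drawn as open triangles at the level of 3 reads. Shoot values run from 825 down to 20.1 RPKM and rhizome values from 0.999 RPKM down to 0 reads, on either side of the dashed limits of 20 and 1 RPKM that chose the genes.

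The 87 genes with rhizome reads were 22.9- to 3006-fold higher in the shoot, with a median of 130-fold. A ratio of at least 20 follows from the rule. The intervals make no allowance for the choice of the genes on these same counts, which favoured low rhizome counts. Tallies of intervals therefore describe the set and do not test it. The counting interval lay wholly above 20-fold for 92 of the 96 genes. It lay wholly above 100-fold for 40 genes, above 200-fold for 23 and above 500-fold for 4. The largest ratio, 3006-fold, rests on 1 rhizome read against 3058 shoot reads in an 1865-base gene of chromosome 3, so its interval runs from 539 to 118771. A 9947-base gene of chromosome 3 had 4 rhizome reads against 6659 shoot reads (0.0238 and 39.0 RPKM). It was 1636-fold higher in the shoot, with an interval of 639 to 6008. Better counted was a 5957-base gene of chromosome 10 with 53 rhizome reads, 983-fold higher in the shoot (751 to 1312). The least separated genes were a 1561-base gene of chromosome 3 and a 1421-base gene of chromosome 5, both 22.9-fold higher in the shoot, with intervals of 15.3 to 36.1 and 14.8 to 37.4.

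The gene with the highest shoot level was Sb07g000600, listed at 436 bases on chromosome 7. Its 6172 shoot reads made 825 RPKM and its 6 rhizome reads 0.816 RPKM, so its rhizome value was near the limit of the set although its ratio was among the largest. Next came a 280-base gene of chromosome 6 with 546 RPKM in the shoot and 2 rhizome reads. The 5957-base gene of chromosome 10 had 518 RPKM in the shoot and 0.528 RPKM in the rhizome. An 1119-base gene of chromosome 1 had 443 RPKM and 0.530 RPKM. After these 4 the shoot levels dropped to 224 RPKM. Within the whole shoot library, 0 of the 10 genes with the highest shoot RPKM were in the set, and 2 of the top 100. The set made up 2.24% of all genes at 20 RPKM or more in the shoot. The count in the top 100 is thus near that share, and 10 genes are too few to tell.

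Among the genes without a single rhizome read, Sb03g038550 (2230 bases, chromosome 3) had the most shoot reads. Its 4451 shoot reads gave 116 RPKM, at least 1458-fold higher in the shoot with the rhizome at the floor of 3 reads. The 2-sided 95% counting interval of the same ratio is wider and starts at 1186-fold. The other 8 had 291 to 1223 shoot reads and 20.5 to 123 RPKM, and were at least 95.4- to 401-fold higher against the floor of 3 reads, with 2-sided intervals that start at 77.1- to 325-fold. These 9 genes were spread over 6 chromosomes, with 3 on chromosome 2, 2 on chromosome 3 and 1 each on chromosomes 1, 4, 6 and 10.

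The share of shoot reads in the set was 1.41% (interval 1.40% to 1.41%). Its share of rhizome reads was 0.00789% (0.00747% to 0.00833%). In reads this was 241217 against 1331, a 178-fold difference of the sums (169 to 188). The sum was uneven. The 5957-base gene of chromosome 10 alone had 52982 shoot reads, the 9th most of any gene in the shoot library, against 53 in the rhizome, a 983-fold difference (751 to 1312). It supplied 22.0% of the set's shoot reads, the 5 genes with the most reads supplied 38.9% and the 10 with the most 50.9%. Without it, the other 95 genes took 1.10% of the shoot reads, and their sums differed 145-fold. The 2nd in reads was the 12171-base gene of chromosome 9 with 13282, 63.7-fold higher in the shoot (55.5 to 73.5), and the 3rd a 3432-base gene of chromosome 1 with 10290, 723-fold higher (430 to 1322).

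The genes of the set had a shorter median length than other genes of the shoot. Their deposited lengths ran from 280 to 12171 bases with a median of 1441, against a median of 2098 for the other 4197 genes at 20 RPKM or more. How the lengths were measured is not stated, and length enters the RPKM rule itself. Of the genes at 20 RPKM or more, 2.79% of the 358 under 500 bases were in the set, 2.91% of the 584 at 500 to 1000 bases and 3.23% of the 1113 at 1000 to 2000 bases. The share was 1.58% of the 1515 genes at 2000 to 4000 bases and 1.24% of the 723 longer ones. The intervals over genes of the 1000 to 2000 base class (2.28% to 4.45%) and of the 2000 to 4000 base class (1.02% to 2.35%) overlapped slightly. The difference between the classes was not tested. The shortest genes did not dominate, since 63 of the 96 genes had lengths under 2000 bases and 10 of them were under 500 bases.

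**Figure D3:**
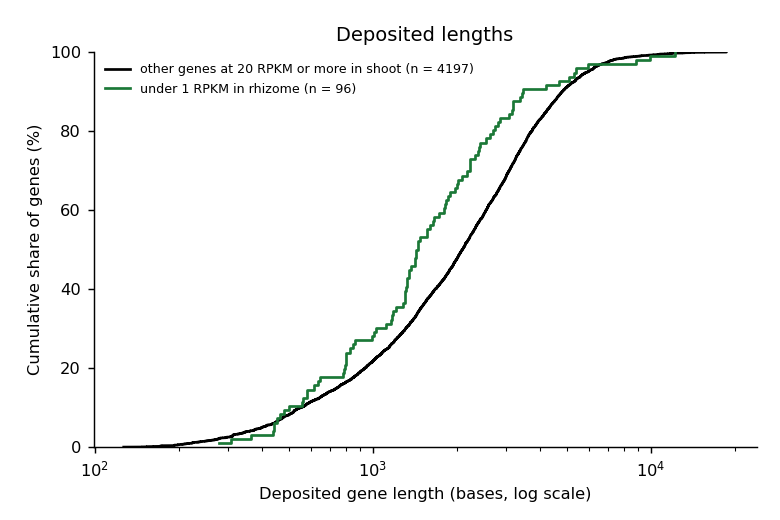
Cumulative share of genes in percent against deposited gene length in bases on a log axis, for the 96 genes under 1 RPKM in the rhizome (green) and the other 4197 genes that reached 20 RPKM in the shoot (black). The green curve runs left of the black one through the middle of the range, with medians of 1441 and 2098 bases, and the curves meet at both ends.

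By the chromosome number in the ID, the set was spread over all 10 chromosomes, with 1 gene whose ID carries no chromosome number. Which genome assembly the IDs describe is not given in the sources used here, so positions may differ in *S. propinquum*. Chromosomes 1 and 2 held 20 genes each, chromosome 3 held 15, and the others held 2 to 9. Set against the genes that reached 20 RPKM in the shoot, chromosome 2 had the highest share, 3.60% of 556 genes (2.21% to 5.50%), and chromosome 4 the lowest, 1.15% of 520 (0.425% to 2.49%). The intervals of all 10 chromosomes include the overall 2.24%, that of chromosome 2 narrowly. These intervals treat genes as independent draws, which neighbouring genes may not be, so they do not serve as a test. The share of chromosome 2 rested in part on 6 neighbouring genes: without them it was 2.55% of 550, and chromosome 5 was then highest at 3.33% of 150. By reads the order was another, as chromosome 10 supplied 24.5% of the set's shoot reads from 4 genes. Its 5957-base gene alone supplied 22.0%.

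**Figure D4:**
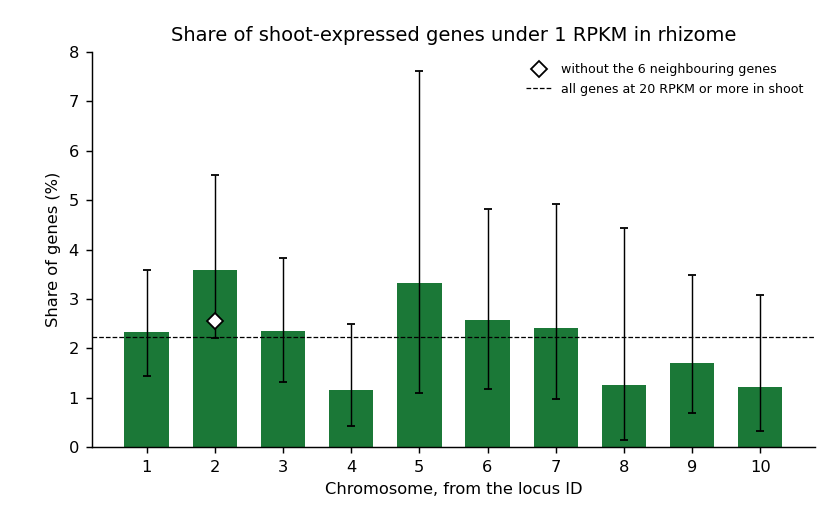
Share of the genes that reached 20 RPKM in the shoot that were under 1 RPKM in the rhizome, in percent, by chromosome number, with exact 95% binomial intervals over genes as lines, the overall 2.24% as a dashed line and chromosome 2 without its run of 6 genes as a diamond. The shares run from 1.15% on chromosome 4 to 3.60% on chromosome 2, and all 10 intervals include the dashed line.

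Part of the set lay side by side. In the order of the IDs, 17 of the 95 genes with a chromosome number (17.9%) had another gene of the set as their next listed neighbour, in 6 runs, and in each run the ID numbers went up in steps of 10. Of all 4258 such genes at 20 RPKM or more, 38.3% had a neighbour at 20 RPKM or more, but those genes are far more numerous, so the shares cannot be set against each other. The longest run was 6 genes of chromosome 2, short genes of 310 to 799 bases. In order along the run, their shoot levels were 140, 54.4, 120, 88.4, 82.6 and 31.4 RPKM. Their rhizome counts in the same order were 3, 0, 3, 7, 2 and 2 reads. High shoot and low rhizome levels in all 6 follow from the rule. Their shoot levels lay within a 4.46-fold range. A run ends at the first listed gene that fails the rule, so the genes on either side fail it by definition. These genes, of 1546 and 5007 bases, had 3.43 and 2.33 RPKM in the shoot and 3.41 and 4.67 RPKM in the rhizome.

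The other 5 runs were 1 of 3 genes and 4 pairs. The run of 3, on chromosome 1, had lengths of 463, 578 and 848 bases and shoot levels of 32.5, 98.6 and 34.7 RPKM. Its rhizome counts were 3, 6 and 2 reads. The listed gene before this run, of 543 bases, had 9.34 RPKM in the shoot and 0.764 RPKM in the rhizome. The gene after it, of 1198 bases, had 3.31 and 11.1 RPKM. The pairs had similar lengths within each pair. On chromosome 2, genes of 1302 and 1309 bases had 181 and 202 RPKM in the shoot and 6 and 7 reads in the rhizome, a close match on both measures. On chromosome 3, genes of 802 and 799 bases had 125 and 205 RPKM in the shoot and 3 and 1 rhizome reads. The pairs on chromosome 1 (1451 and 1422 bases) and chromosome 7 (1839 and 1895 bases) differed more in level, with 21.1 and 47.8 RPKM, and 72.8 and 29.5 RPKM. Whether neighbours of like length are copies of each other that share reads cannot be told from these files, so the levels within a run are uncertain. The genes of a run are also not independent observations.

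**Figure D5:**
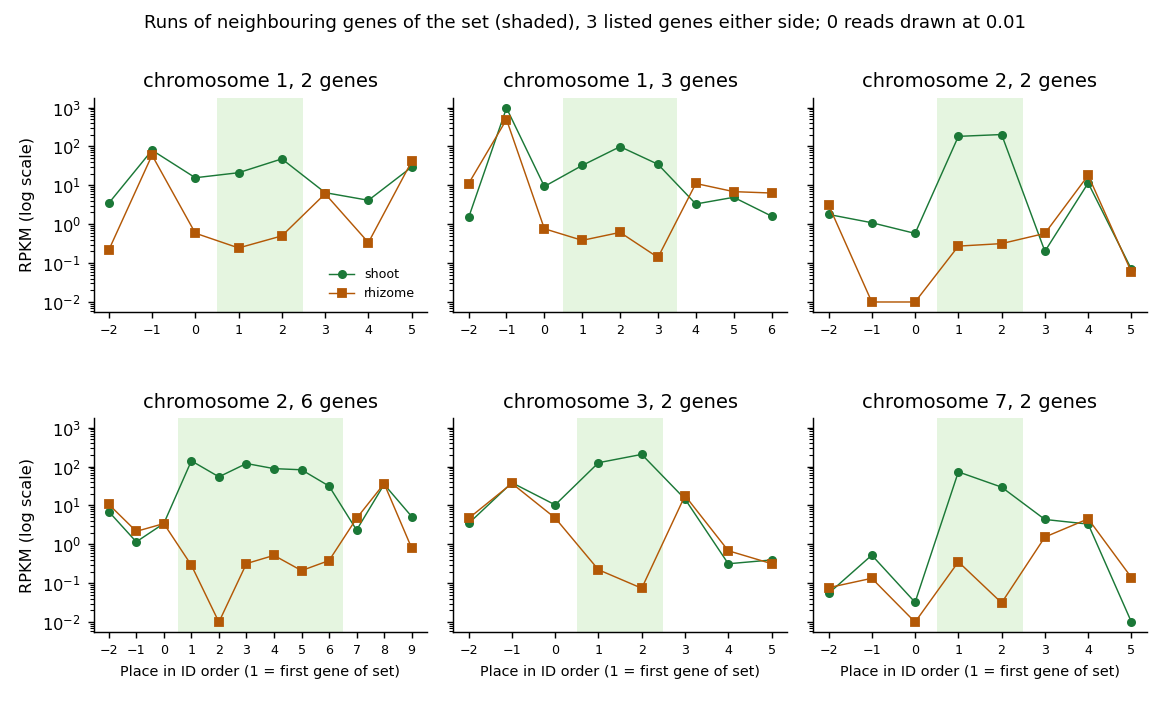
Shoot (green) and rhizome (brown) levels in RPKM on a log axis for the 6 runs of neighbouring genes of the set (shaded) and 3 listed genes on either side, by place in ID order, with 0 reads drawn at 0.01. In the shaded genes the curves are far apart, which the rule requires. The run of 6 on chromosome 2 had 31.4 to 140 RPKM against at most 0.520 RPKM. Outside the shading the genes vary. Some have similar levels in both libraries. Others are higher in the shoot (15.7 against 0.588 RPKM before the chromosome 1 pair) or in the rhizome (1.49 against 11.1 RPKM near the run of 3).

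Genes next to the set but outside it were also described. The rule did not pick them for a high ratio, but they are outside the set because their own levels failed it. There were 167 such neighbours, of which 91 had at least 5 RPKM in either library. Of these, 16 (17.6%) were 4-fold or more higher in the shoot and 0 were 4-fold or more higher in the rhizome. Over all 12826 genes at 5 RPKM or more the shares were 9.02% and 1.80%, and over the genes that were neither in the set nor beside it 8.26% and 1.82%. No test was made of this difference, and the neighbours are few. Of the 16 genes, 11 were also under 1 RPKM in the rhizome and missed the set by their shoot level, and the other 5 had 20 RPKM or more in the shoot and missed it by their rhizome level.

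The most abundant of these neighbours were genes with a strong shoot signal and a clear rhizome one. Beside the 2004-base gene of chromosome 2 (177 RPKM in the shoot, 26 rhizome reads) lay a 1706-base gene with 936 RPKM in the shoot and 5.56 RPKM in the rhizome, 168-fold higher in the shoot. Beside the 1119-base gene of chromosome 1 lay a 1720-base gene with 917 and 12.2 RPKM, 74.9-fold higher in the shoot. Beside Sb07g000600 lay a gene of nearly the same length, 433 bases, with 509 RPKM in the shoot, and 83 rhizome reads for 11.4 RPKM, 44.7-fold higher in the shoot. At these shoot levels a gene can be outside the set by its rhizome level alone, so rhizome levels of 1 RPKM or more follow from the rule. How far the levels lay above 1 RPKM does not follow from it and was not tested.

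The reverse pattern was rare. With the organs exchanged, 10 genes had 20 RPKM or more in the rhizome and less than 1 RPKM in the shoot, 0.240% of the 4163 genes that reached 20 RPKM in the rhizome. The set was thus 9.60 times as large as its reverse. The 2 libraries as a whole leaned the same way. Of the 12826 genes that reached 5 RPKM in the shoot, the rhizome or both, 1157 (9.02%) were 4-fold or more higher in the shoot. Those 4-fold or more higher in the rhizome numbered 231 (1.80%). These counts include the set and its reverse. How far the 9.60-fold excess goes beyond this general lean was not tested. The reverse genes had 20.8 to 64.5 RPKM in the rhizome, with a median of 46.3 against the 38.99 RPKM of the set in the shoot. All of the reverse genes stayed below the top of the set, but 10 genes are too few against 96 to compare the highest levels. None of them lay beside another, but so few genes would seldom be neighbours, so this cannot be set against the runs of the set. The reverse genes took 0.0531% of the rhizome reads. Their median length, over only 10 genes, was 1235 bases, against 1441 bases in the set. No median was taken over the other genes at 20 RPKM or more in the rhizome. Whether short length was particular to the set was therefore not tested. Of the 10, 3 had 0 shoot reads, the most abundant of which was a 714-base gene of chromosome 6 with 56.6 RPKM (681 reads) in the rhizome. The counts of 96 and 10 genes come from the same pair of libraries, so the excess describes this pair and not the organs in general.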

How the data were processed

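Total RNA was extracted with TRIzol and sequenced as Illumina libraries, per the labels' protocols. For the aligner, counting program, genome build, annotation and use of strand, nothing was given in the sources used here. Each deposited table holds a gene length, a whole-number read count and an RPKM per locus, per the file headers. RPKM was recomputed from the deposited counts, lengths and column totals, with no pseudocount, and differed from the authors' deposited RPKM by less than 1e-06. Reads may be shared between overlapping or antisense genes and between similar copies.

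A count model such as edgeR's could not be fitted, as 1 library per organ leaves nothing to estimate the spread from. Ratios of counts scaled by totals have conditional binomial (Clopper-Pearson) 95% intervals, shares have Clopper-Pearson intervals and levels have Poisson intervals. A count of 0 was set to 3 reads per library for a lower bound, which is less strict than the 2-sided intervals. Neighbours are next to each other among listed genes in ID order. The members, lists and rules were chosen with earlier results of these data known. The named-gene rule took 2 IDs, the highest shoot RPKM and the most shoot reads at 0 rhizome reads. The neighbours outside the set and the counts without the longest run were chosen after seeing the data. No gene lists by product could be filled, so none is reported. The code was tested on simulated counts. TMM factors came from edgeR 4.0.16 in R 4.3.3, and the rest from Python 3.11.15 with scipy 1.17.1, pandas 2.3.3, numpy 2.4.6 and matplotlib 3.10.9.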

Additional observations from a re-analysis of the deposited data

How the results depend on the processing

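The 96 genes, 9 of them at 0 rhizome reads, and the 10 reverse genes became 109, 11 and 9 under TMM and under median-of-ratios scaling, which lower each log2 ratio of rhizome to shoot by 0.17. All 96 genes were kept there. The set's share of shoot reads, 1.41%, was 1.51% under both. Leaving the 100 most abundant genes of each library out of the totals raised RPKM in both libraries against the same thresholds. It gave 104 genes, 88 of them among the 96, and 1.35%. A minimum length of 500 bases gave 86 genes and 1.33%. The thresholds moved the counts most. Genes, their share of shoot reads and reverse genes were 196, 1.67% and 24 with a minimum of 10 RPKM, 39, 1.02% and 4 with 50 RPKM, 60, 0.722% and 5 with a limit of 0.5 RPKM, and 154, 1.89% and 16 with 2 RPKM. With at most 3 rhizome reads they were 30, 0.240% and 4, and with the upper counting limit under 1 RPKM 65, 1.11% and 7. Genes at 0 rhizome reads numbered 23 with a minimum of 10 RPKM, 3 with 50 RPKM and 18 with CPM (reads per 1000000) in place of RPKM. CPM chose 133 genes, 65 of them among the 96, with 0.939% of shoot reads. Without the gene with the most reads the share was 1.10%. The excess over the reverse set ranged from 7.50 to 13.3 times over these settings. Genes beside another of the set, 17 in the report, were 33 at a minimum of 10 RPKM, 9 at 50 RPKM, 11 with a limit of 0.5 RPKM and 11 without the longest run, and 17 to 23 under the other alternatives. The highest chromosome share was 5.71% (chromosome 2) at 50 RPKM, 5.54% (chromosome 7) with a limit of 2 RPKM and 0.622% (chromosome 2) of all listed genes, so which chromosome leads depends on the setting. The median length was 861 bases at a minimum of 50 RPKM and 1352 to 1645 under the other alternatives. Neighbours outside the set higher in the shoot were 18 of 90 (20%) under both scalings. The share of genes neither in the set nor beside it also rose, from 8.26% to 9.58%. With a pseudocount of 1 RPKM the ratios of Sb07g000600 and Sb03g038550 were 455 and 117. No paired analysis was possible because there was 1 library of each organ, and no replicate could be left out.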

Other observations

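The gene of the set without a chromosome number in its ID was listed at 4196 bases. Its 4348 shoot reads made 60.4 RPKM and its 20 rhizome reads 0.283 RPKM, 214-fold higher in the shoot (interval 138 to 350). Within the set, shorter genes had somewhat higher shoot RPKM, with Spearman's rho of -0.23 over 96 genes, and the other 4197 genes at 20 RPKM or more had nearly the same value, -0.26. Length is part of RPKM, so the coefficients share it with the level. Around the pair of chromosome 1 genes of 1451 and 1422 bases, another gene of like length, 1311 bases, had 15.7 RPKM in the shoot and 0.588 RPKM in the rhizome (26.6-fold higher in the shoot), just under the minimum of 20 RPKM, while the gene on the far side, of 1359 bases, had 6.48 and 6.07 RPKM. A 2211-base gene of chromosome 2 lay between a pair of genes of the set and had 602 shoot reads (15.9 RPKM) and 0 rhizome reads.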
